A study of Homo sapiens with 36 samples.

Results

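The comparison described here sets NB4 cells that had both all-trans retinoic acid (ATRA) and atorvastatin for 24 h against NB4 cells that had neither agent for 24 h. Its members were taken from the sample titles alone, 3 arrays labelled with both agents (combination) and 3 arrays labelled with neither (control), which makes 6 of the 36 arrays of the series. NB4 is a line from 1 human acute promyelocytic leukaemia and carries the PML-RARA fusion gene, so both groups carry it. Combination cells had ATRA for 1 h before atorvastatin was added, and no carrier solution is named for the control cells. The other 30 arrays hold both agents and control at 8 and 48 h, and ATRA alone and atorvastatin alone at 8, 24 and 48 h, with 3 arrays per group. Total RNA was measured on bead arrays with 47293 probes, and 15308 named genes were tested. Doses are not stated in the labels. The study looked for genes that go with the effect of a statin on ATRA-driven differentiation, and the comparison here asks which genes both agents together move by 24 h.

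Retinoic acid acts through nuclear receptors that sit on DNA as pairs of a retinoic acid receptor and a retinoid X receptor. In acute promyelocytic leukaemia the PML-RARA fusion protein holds such targets silent and blocks myeloid cells at the promyelocyte stage, and pharmacological ATRA releases the block, so that the cells take on features of neutrophils. Atorvastatin lowers the synthesis of mevalonate, the precursor of cholesterol and of the isoprenoid groups that anchor some signalling proteins in membranes.

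Values are normalized log2 signals, in which 1 unit is a doubling of the signal. The median of all probes was 6.34 and the 90th percentile 8.59, so a gene near 6.34 sat close to background and its change is compressed. A change is combination minus control and is given ± SE from a limma fit to all 36 arrays, with n = 3 arrays per group. A gene is said to have risen or fallen where its limma p, adjusted by Benjamini-Hochberg over the 15308 genes, was under 0.05. The arrays of a group were taken to come from separate experiments, numbered 1 to 3 in the order of the title numbers. The titles give only a running number per array, so these experiments are inferred. That arrays of the same experiment number belong together was not shown. Before normalization the median intensity was 117.3, 93.3 and 98.8 in the combination arrays of experiments 1, 2 and 3. In the control arrays it was 185.4, 99 and 94.9. The other arrays of experiment 1 labelled without ATRA were bright too, at 152.2 to 178.9, against 101.8 to 118.2 in those labelled with ATRA. Brightness and ATRA cannot be told apart in that experiment. Without its control array 681 genes passed, against 922 with it. Leaving out any 1 of the 6 arrays gave 607 to 686. A pair of arrays outside the comparison, labelled ATRA and atorvastatin at 24 h in experiment 1, each resembled the other's label. They did not enter any difference between combination and control, but they widened the SE of genes that 1 agent moves, because all arrays share 1 estimate of spread per gene. They are called the 2 doubted arrays below.

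The cells carried the markers of their label. Of the 6 promyelocyte markers set for NB4, 5 were measured, and MPO, the myeloperoxidase gene of the primary granules, lay far above the 90th percentile in all 6 arrays. MPO stood at 13.95, 13.88 and 14.17 in the combination arrays, against 14.71, 14.82 and 14.67 in the control arrays. ELANE, the neutrophil elastase gene, was near background, with means of 6.67 in combination and 6.53 in control. The 5 markers summed on the linear scale to between 31797 and 37352 in the combination arrays, against 47515 to 55250 in the control arrays. The 6 granulocyte markers summed to between 15381 and 17919 in the combination arrays, against 1168 to 1292 in the control arrays. Such sums are led by the brightest members, and NCF1 had a combination mean of 13.72. Of the 6 granulocyte markers 4 rose, while FPR1 and CYBB did not pass. Of the 5 promyelocyte markers MPO and CTSG fell, while PRTN3, AZU1 and ELANE did not pass. In RNA from a whole culture, fewer cells of a type and less RNA per cell cannot be told apart.

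Of the 15308 genes tested, 922 (6.02%) changed, 537 (3.51%) of them higher and 385 (2.52%) lower in the combination. The median rise was 0.84 and the median fall -0.65. A change of at least 1 log2 unit was seen in 198 genes that rose and 53 that fell, and one of at least 2 units in 54 and 3. The 3 arrays of each group did not overlap for 919 of the 922 genes, while 25.2% of all genes tested had groups that did not overlap. Of the genes that rose, 49 had a control mean under the median probe, and of those that fell, 268 had a control mean above the 90th percentile. Without the 2 doubted arrays 1159 genes changed (7.57%), 671 higher and 488 lower, and they included all 922. Leaving out the arrays of experiment 1 gave 681 genes, those of experiment 2 gave 257 and those of experiment 3 gave 390. Leaving out the combination array of experiment 1 alone gave 607. With arrays scaled to a common median in place of quantile normalization, 955 of 1003 changed genes were higher (95.2%), against 58.2% with quantile normalization, and the median change of all genes moved to 0.10, against -0.003 with quantile normalization. The split between rises and falls therefore depends on the scaling.

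**Figure D1:**
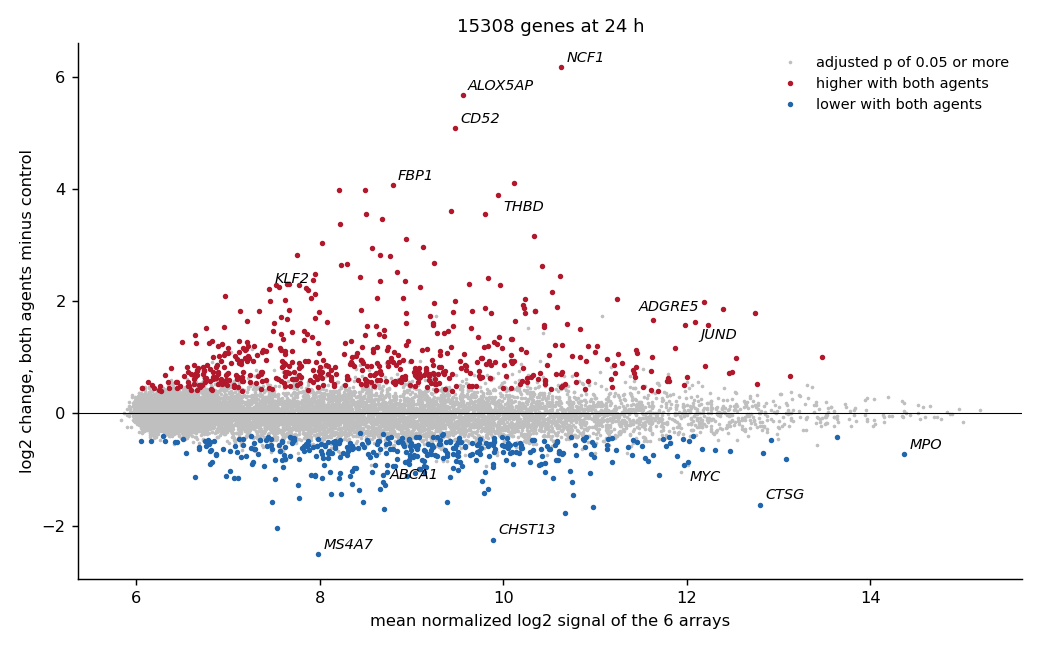
Change (combination minus control at 24 h, log2) of each of the 15308 genes against its mean signal over the 6 arrays, with the genes that passed the limma test coloured and 14 genes of the text labelled. The rises reach 6.17 and the falls -2.52.

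The largest rises included several genes known from phagocytes. NCF1, which encodes the organizer subunit of the phagocyte oxidase, stood at 13.77, 13.52 and 13.87 in the combination arrays, against 7.53, 7.41 and 7.70 in the control arrays. The groups lay far apart, with a change of 6.17 ± 1.02 (adjusted p = 0.000121), and the SE was 0.17 without the 2 doubted arrays. NCF1 has near-identical pseudogene copies, so its probe may read more than 1 transcript. ALOX5AP, whose product presents arachidonic acid to 5-lipoxygenase, stood at 12.43, 12.20 and 12.56 in the combination arrays, against 6.69, 6.60 and 6.86 in the control arrays. It rose by 5.67 ± 0.97. CD52, which encodes a small surface glycoprotein of leukocytes, stood at 11.97, 12.26 and 11.80 in the combination arrays, against 6.43, 7.56 and 6.80 in the control arrays. It rose by 5.08 ± 0.84, and the control array of experiment 2 was the highest of its group. CCL2, the gene of a monocyte attractant, stood at 12.04, 12.12 and 12.37 in the combination arrays, against 7.86, 8.07 and 8.26 in the control arrays, and rose by 4.11 ± 0.73. FGR, a Src-family kinase of myeloid cells, stood at 10.25, 10.15 and 10.21 in the combination arrays, against 6.22, 6.42 and 6.02 in the control arrays, so its control signal was at background. It rose by 3.98 ± 0.67. TNFAIP2, first known as a gene induced by tumour necrosis factor, rose by 3.16 ± 0.35 and the chemokine receptor gene CCR1 by 3.10 ± 0.48. INAVA, an adaptor of innate immune signalling, rose by 3.56 ± 0.58 and TGM3, a transglutaminase, by 3.37 ± 0.58.

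The 4 genes given as markers of the comparison all rose. They came with the comparison itself, so their rise is not an independent result. Their groups did not overlap, which also held for 25.2% of all genes tested. FBP1, the fructose bisphosphatase of gluconeogenesis, stood at 10.88, 10.86 and 10.73 in the combination arrays, against 6.97, 6.69 and 6.63 in the control arrays. It rose by 4.06 ± 0.52, with differences of 3.91, 4.17 and 4.10 between arrays of the same inferred experiment, 1, 2 and 3. THBD, which encodes the anticoagulant receptor thrombomodulin, stood at 11.82, 11.91 and 11.94 in the combination arrays, against 8.09, 8.01 and 7.87 in the control arrays, and rose by 3.90 ± 0.32. KLF2, a Krüppel-like transcription factor known as a statin-induced gene in endothelium, stood at 8.48, 8.38 and 8.83 in the combination arrays, against 6.47, 6.35 and 6.19 in the control arrays. Its control signal was at background, and it rose by 2.22 ± 0.41. ADGRE5, the adhesion receptor CD97 of leukocytes, stood at 12.54, 12.46 and 12.40 in the combination arrays, against 10.97, 10.82 and 10.60 in the control arrays, and rose by 1.67 ± 0.15. A second ADGRE5 probe, at 6.26 in control and thus near background, gave 0.31 ± 0.14 and did not pass.

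**Figure D2:**
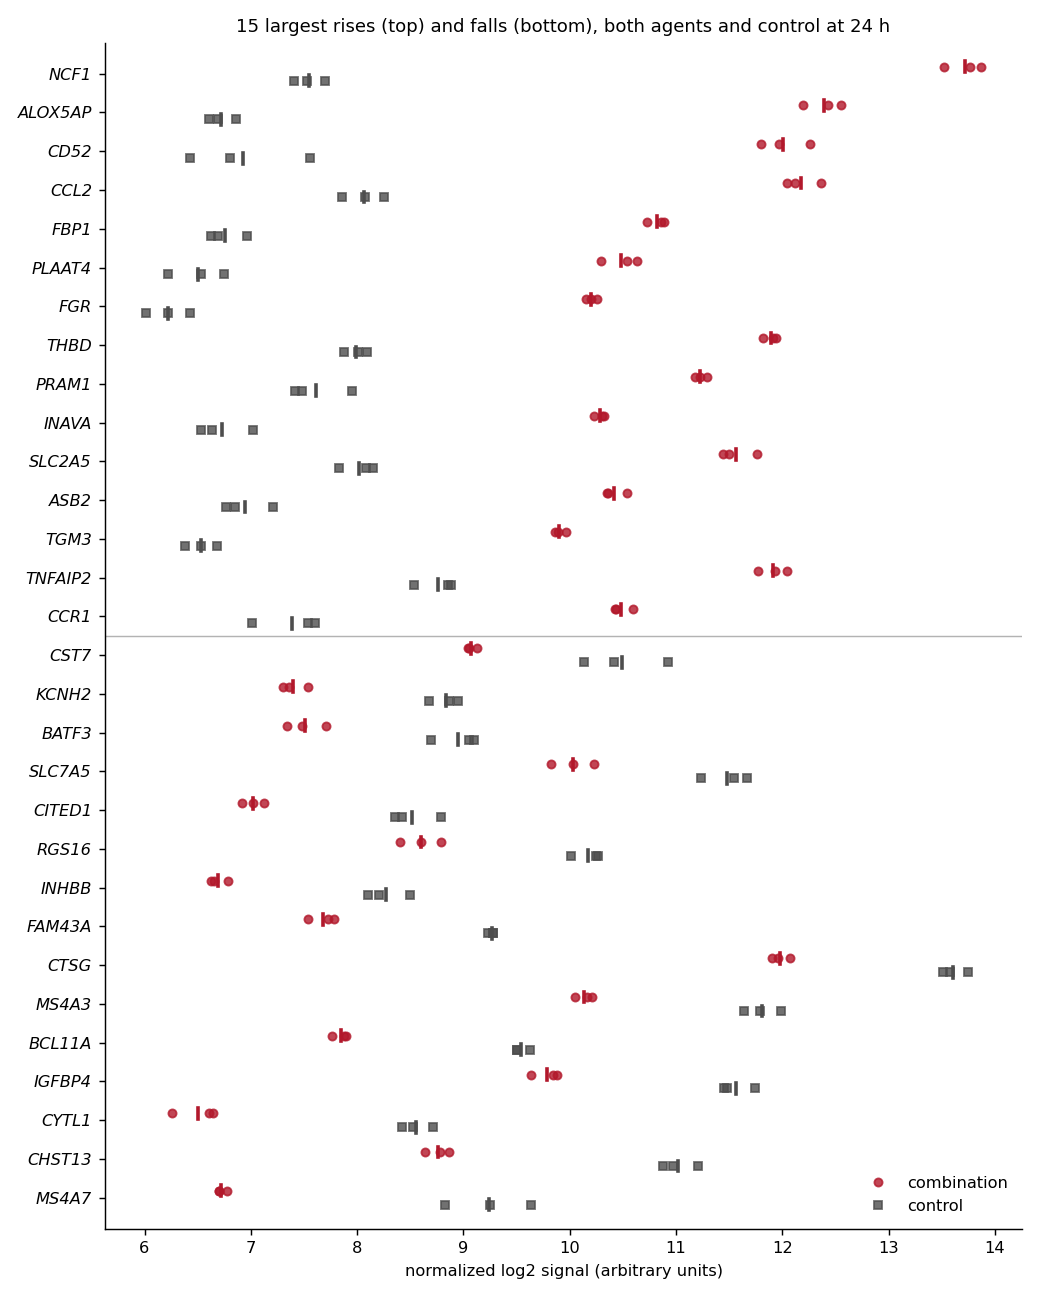
Log2 signal in each of the 3 combination and 3 control arrays at 24 h for the 15 genes with the largest rises (top) and the 15 with the largest falls (bottom). Each point is 1 array and each bar a group mean, and the groups are apart in every gene shown, as the choice of genes required.

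Promoters were searched for motifs of factors known in these cells, and the motif shown was picked after the values were seen. PU.1, encoded by SPI1, binds purine-rich sites around a GGAA core in myeloid genes. SPI1 itself, named after its values were seen, stood at 9.95, 9.92 and 9.91 in the combination arrays, against 8.98, 8.70 and 8.88 in the control arrays, and rose by 1.07 ± 0.21. The letters GAGGAAGT were searched on both strands in the 250 bases before the start of each gene in RefSeq (GRCh38.p14), as 1 of 8 motifs, and 12450 tested genes had a promoter entry. The motif was present in 28 of 432 promoters of genes that rose (6.48%), in 9 of 316 of genes that fell (2.85%) and in 2.17% of those of genes tested. It was present in 2.17% of all 35116 promoters of the table, and no test of these shares was made. NCF1, ALOX5AP, TNFAIP2 and BCL2A1 are shown because they hold it and lie among the genes with large rises. The capitals mark GAGGAAGT or its reverse complement ACTTCCTC, and each line runs 5′ to 3′ on the gene's strand and ends at the base before the start.
NCF1 (chr7:74773761-74774010, plus strand): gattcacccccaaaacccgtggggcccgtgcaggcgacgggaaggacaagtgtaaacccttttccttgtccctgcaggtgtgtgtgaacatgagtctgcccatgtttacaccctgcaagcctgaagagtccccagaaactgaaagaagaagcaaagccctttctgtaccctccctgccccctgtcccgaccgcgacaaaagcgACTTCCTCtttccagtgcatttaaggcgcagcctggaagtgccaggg
ALOX5AP (chr13:30713235-30713484, plus strand): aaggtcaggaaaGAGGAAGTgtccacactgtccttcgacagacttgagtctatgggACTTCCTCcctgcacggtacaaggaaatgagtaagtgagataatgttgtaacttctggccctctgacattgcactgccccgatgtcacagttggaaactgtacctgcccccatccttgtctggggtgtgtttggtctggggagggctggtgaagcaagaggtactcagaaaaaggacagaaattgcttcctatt
TNFAIP2 (chr14:103123211-103123460, plus strand): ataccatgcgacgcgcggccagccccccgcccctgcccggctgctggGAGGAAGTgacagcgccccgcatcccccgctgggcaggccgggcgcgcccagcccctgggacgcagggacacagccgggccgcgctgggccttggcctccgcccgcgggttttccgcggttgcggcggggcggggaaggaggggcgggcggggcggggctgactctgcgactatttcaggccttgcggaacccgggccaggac
BCL2A1 (chr15:79971197-79971446, minus strand): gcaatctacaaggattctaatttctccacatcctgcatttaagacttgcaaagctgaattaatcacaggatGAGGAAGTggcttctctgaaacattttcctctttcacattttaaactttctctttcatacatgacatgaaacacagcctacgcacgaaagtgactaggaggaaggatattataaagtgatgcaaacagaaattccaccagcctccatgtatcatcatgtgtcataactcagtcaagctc
The match lies 47 bases before the start in NCF1, 203 in TNFAIP2 and 179 in BCL2A1, and ALOX5AP has a pair of matches, 238 and 194 bases before it. The E-box CACGTG, which MYC and related factors can bind and which was also picked after the values were seen, was present in 26 of 432 promoters of genes that rose (6.02%), 39 of 316 of genes that fell (12.3%) and 8.06% of those tested. Of the other 6 motifs, the STAT motif TTCCNNGAA was in 3.7% of promoters of genes that rose and 4.02% of those tested, the AP-1 motif TGAGTCA in 3.01% and 3.08%, and the interferon response element in 3.47% and 2.57%. Direct repeats of GGTCA or GTTCA 5 bases apart were in 0 of 432 promoters of genes that rose and 0.104% of those tested. The retinoic acid response element with 6-letter repeats 5 bases apart has 1 more base between these letters. Its share was therefore not measured. The MEF2 motif was in 2 of the 432 and the sterol response motif in 1. A match describes letters only, and binding was not measured.

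Among 22 measured genes of retinoid signalling and metabolism, 9 rose and 1 fell, with a median change of 0.34, against -0.003 over all genes. As shares these were 40.9% and 4.55%, against 3.51% and 2.52% of all genes tested. The counts of the lists below stand beside the same shares of all genes. PLAAT4, a retinoid-induced phospholipase, stood at 10.29, 10.54 and 10.63 in the combination arrays, against 6.53, 6.22 and 6.75 in the control arrays, and rose by 3.98 ± 0.70. PRAM1, an adaptor that PML-RARA represses, rose by 3.61 ± 0.63, and ASB2, a substrate subunit of a cullin ubiquitin ligase, by 3.47 ± 0.65. These genes sat at or little above background in control cells and among the brighter genes in combination cells. DHRS3, a retinaldehyde reductase that limits retinoic acid formation, stood at 10.19, 10.11 and 10.20 in the combination arrays, against 7.21, 7.39 and 7.50 in the control arrays, and rose by 2.80 ± 0.58. CD38, an ecto-enzyme that consumes NAD and is a retinoid target in myeloid cells, rose by 1.90 ± 0.40. Among the receptor genes, RXRA, a retinoid X receptor, stood at 10.37, 10.27 and 9.83 in the combination arrays, against 11.20, 10.83 and 10.93 in the control arrays, and fell by 0.83 ± 0.20, a call lost with median scaling. RARA gave 0.51 ± 0.18 (adjusted p = 0.108) and the retinoic acid hydroxylase gene CYP26A1 0.47 ± 0.15 (adjusted p = 0.0674), and both passed with median scaling. The CYP26A1 probe used had a control mean of 6.33, which is at background. Other CYP26A1 probes gave 0.00 and -0.23 and did not pass.

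Of 20 measured transcription factors of granulocyte development, 7 rose and 2 fell (median 0.32). IRF1, an interferon regulatory factor that retinoic acid induces in myeloid cells, stood at 11.67, 11.70 and 11.82 in the combination arrays, against 9.24, 8.93 and 9.13 in the control arrays, and rose by 2.63 ± 0.47. CEBPE, which drives secondary granule genes in late granulocyte development, stood at 10.87, 10.93 and 11.51 in the combination arrays, against 8.55, 8.85 and 9.05 in the control arrays, and rose by 2.29 ± 0.42. ID2, an inhibitor of helix-loop-helix factors, rose by 2.35 ± 0.48 and CEBPB by 1.59 ± 0.29. The factors that fell were BCL11A and CEBPD. BCL11A, a zinc-finger repressor of early haematopoietic cells, stood at 7.89, 7.88 and 7.76 in the combination arrays, against 9.50, 9.50 and 9.62 in the control arrays. It fell by 1.70 ± 0.20, while another BCL11A probe near background gave -0.23. CEBPD fell by 0.56 ± 0.17, a call lost with median scaling.

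Genes of the neutrophil oxidase rose in part. Of 9 measured genes of the phagocyte NADPH oxidase, which makes superoxide, 4 rose and 1 fell (median 0.58). Besides NCF1 these were RAC2, the GTPase that switches the oxidase on, at 1.14 ± 0.31, NCF4, a further cytosolic subunit, at 1.03 ± 0.22, and CYBA, a membrane subunit, at 0.65 ± 0.15. Other NCF4 probes gave 0.90 and 0.13. HVCN1, the proton channel that balances the oxidase's charge, stood at 8.31, 8.35 and 8.86 in the combination arrays, against 9.51, 9.60 and 9.58 in the control arrays. It fell by 1.05 ± 0.18, a call lost with median scaling. The catalytic subunit gene CYBB gave 0.58 ± 0.21 (adjusted p = 0.107).

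Among 34 measured granulocyte maturation genes 13 rose and 0 fell (median 0.42). ITGAM, the integrin chain CD11b by which ATRA-induced differentiation is usually scored, stood at 8.92, 8.59 and 8.85 in the combination arrays, against 6.36, 6.55 and 6.55 in the control arrays. It rose by 2.30 ± 0.26, and its control arrays were at background. S100A8, a calcium-binding partner of S100A9 in neutrophil cytosol, stood at 8.16, 7.84 and 8.04 in the combination arrays, against 5.79, 6.17 and 5.80 in the control arrays, and rose by 2.09 ± 0.27. S100P rose by 1.88 ± 0.39. The chemotactic receptor gene FPR1 gave -0.05 ± 0.17 (adjusted p = 0.95).

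Genes of the azurophil granule and promyelocyte moved in both directions, with 2 of 17 higher and 6 lower and a median of -0.01, which was 0.14 with median scaling. MS4A3, a membrane protein gene of committed myeloid progenitors, stood at 10.21, 10.16 and 10.05 in the combination arrays, against 11.79, 11.64 and 11.99 in the control arrays, and fell by 1.67 ± 0.25. CTSG, the serine protease cathepsin G, stood at 12.07, 11.96 and 11.91 in the combination arrays, against 13.51, 13.74 and 13.57 in the control arrays, and fell by 1.63 ± 0.33. CST7, a cysteine protease inhibitor gene, fell by 1.42 ± 0.32 and MYB, the transcription factor of immature blood cells, by 0.75 ± 0.18. Both of these calls, and that of MPO at -0.73 ± 0.22, were lost with median scaling. Against them, the defensin gene DEFA4 stood at 11.61, 11.99 and 11.93 in the combination arrays, against 9.19, 9.56 and 9.45 in the control arrays. It rose by 2.44 ± 0.62, and GUSB, the lysosomal glucuronidase, by 0.64 ± 0.18. The protease genes PRTN3 (0.35 ± 0.23, adjusted p = 0.527) and AZU1 (-0.01 ± 0.19, adjusted p = 0.989) did not pass.

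**Figure D3:**
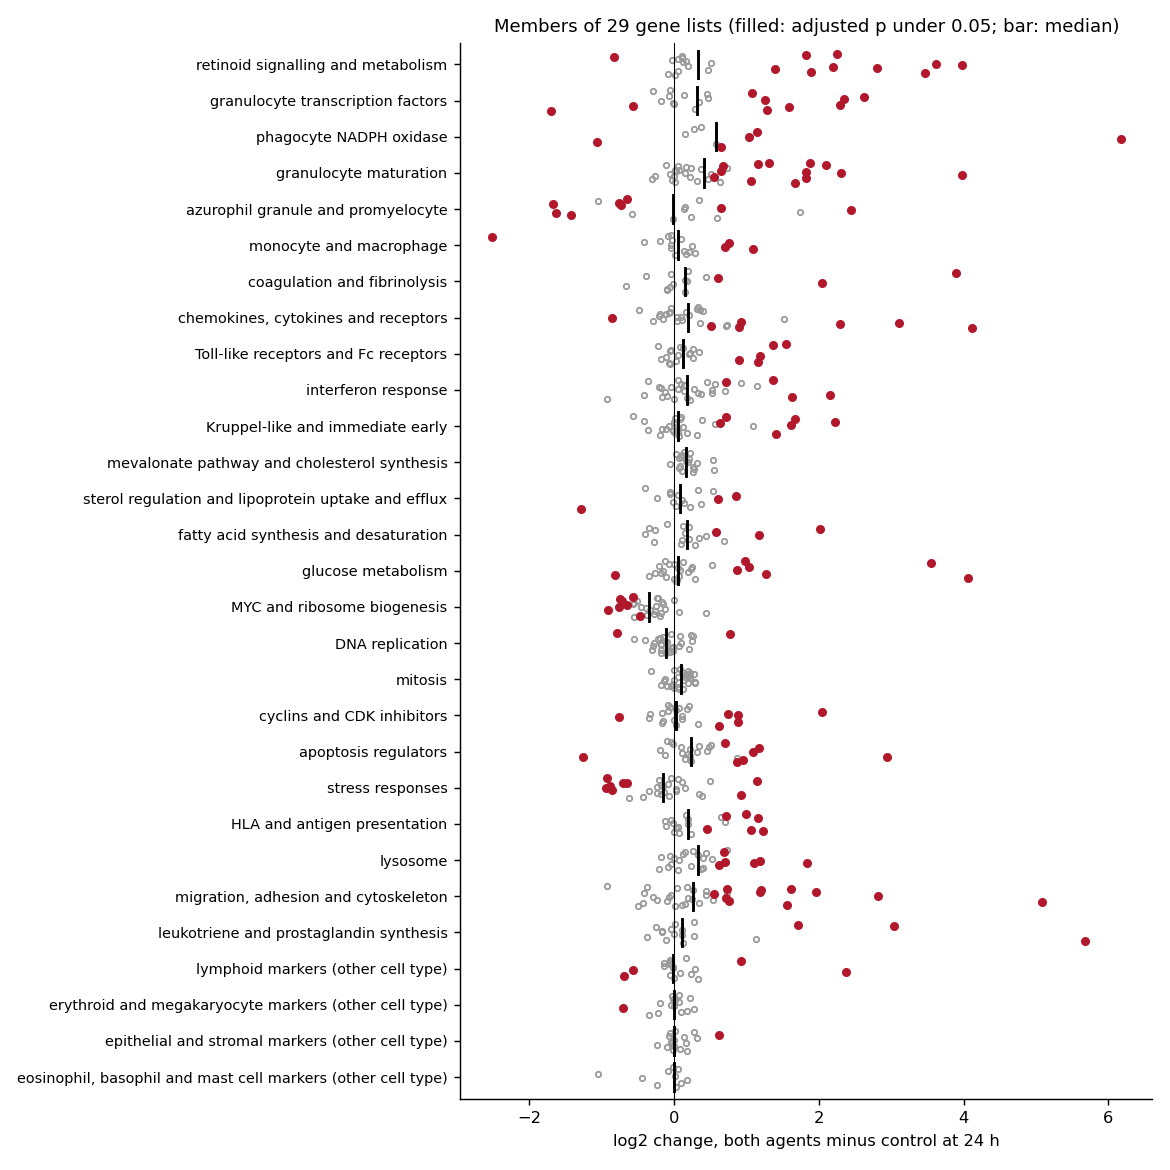
Change (combination minus control at 24 h, log2) of every measured member of 29 gene lists, 1 row per list, filled where the gene passed the limma test, with a bar at the list's median. Members of most lists straddle 0, and the filled points of the granulocyte maturation, lysosome and migration rows all lie to the right of it.

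Of 18 measured monocyte and macrophage genes 3 rose and 1 fell (median 0.05), which is 16.7% and 5.56%, against 3.51% and 2.52% of all genes. CSF1R, the receptor of the macrophage growth factor, stood at 9.41, 9.35 and 9.29 in the combination arrays, against 8.45, 8.31 and 8.03 in the control arrays, and rose by 1.09 ± 0.20. The ficolin gene FCN1 rose by 0.76 ± 0.15 and CTSS, cathepsin S, by 0.71 ± 0.21. MS4A7, a tetraspan protein gene, gave the largest fall of all genes. It stood at 6.77, 6.70 and 6.70 in the combination arrays, against 9.25, 9.63 and 8.82 in the control arrays, and fell by 2.52 ± 0.39 to near background. The monocyte marker CD14 was near background in both groups, with means of 6.18 in combination and 6.16 in control.

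Chemokines, cytokines and their receptors had 6 of 30 measured genes higher and 1 lower (median 0.19). Besides CCL2 and CCR1, CCL4, an attractant of T cells and monocytes, stood at 8.67, 7.82 and 9.51 in the combination arrays, against 6.61, 6.31 and 6.19 in the control arrays. It rose by 2.29 ± 0.65, and its combination arrays spread over more than 1 log2 unit, with a SD of 0.84. The atypical chemokine receptor gene CCRL2 rose by 0.93 ± 0.22. CXCR4, the receptor that retains myeloid cells in bone marrow, stood at 9.01, 8.95 and 9.21 in the combination arrays, against 9.94, 9.86 and 9.93 in the control arrays. It fell by 0.85 ± 0.25, a call lost with median scaling. IL1B, the interleukin gene of activated phagocytes, stood at 6.52, 6.54 and 6.72 in the combination arrays, against 6.33, 6.29 and 6.54 in the control arrays, near background in both and with no call (adjusted p = 0.623).

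Receptors of innate immunity, interferon response genes and antigen presentation genes changed only upward among those that passed. Among Toll-like receptors, Fc receptors and their partners 5 of 21 rose and 0 fell (median 0.13), among them TYROBP, the signalling adaptor DAP12, at 1.55 ± 0.27, TREM1 at 1.37 ± 0.19, the inhibitory receptor gene LILRB2 at 1.19 ± 0.19 and the Fc receptor chain gene FCER1G at 1.16 ± 0.24. Interferon response genes had 4 of 31 higher (12.9%, against 3.51% of all genes) and 0 lower (median 0.18). IFI6 stood at 11.63, 11.74 and 11.44 in the combination arrays, against 9.48, 9.68 and 9.17 in the control arrays, and rose by 2.16 ± 0.40. IFI35 rose by 1.64 ± 0.37. ZC3HAV1, an antiviral zinc-finger protein gene, rose by 1.37 ± 0.20 on its brightest probe, while its other probes gave 0.02 and 0.12. Among HLA and antigen presentation genes 6 of 20 rose and 0 fell (median 0.20), with HLA-B at 1.23 ± 0.24, the immunoproteasome subunit gene PSMB10 at 1.17 ± 0.25, HLA-C at 1.07 ± 0.22 and the peptide-loading chaperone gene TAPBP at 1.00 ± 0.18.

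The coagulation and fibrinolysis list had 3 of 15 measured genes higher (20%, against 3.51% of all genes) and 0 lower (median 0.15). With THBD, PLAU rose, the urokinase that activates plasminogen. It stood at 12.20, 12.22 and 12.36 in the combination arrays, against 10.12, 10.19 and 10.35 in the control arrays, and rose by 2.04 ± 0.13. The gene of the anticoagulant protein S, PROS1, rose by 0.61 ± 0.15. F3, which encodes tissue factor, the initiator of coagulation, stood at 6.94, 6.85 and 6.67 in the combination arrays, against 8.00, 6.72 and 7.71 in the control arrays. Its groups overlapped, and it did not pass at -0.66 ± 0.39 (adjusted p = 0.452). In leukotriene and prostaglandin synthesis 3 of 17 rose and 0 fell (median 0.11). PTGES, the terminal prostaglandin E synthase, stood at 9.45, 9.33 and 9.84 in the combination arrays, against 6.58, 6.51 and 6.41 in the control arrays, and rose by 3.04 ± 0.40. PTGS1, the constitutive cyclooxygenase, rose by 1.72 ± 0.31.

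The pathway that atorvastatin blocks gave no calls. Of 19 measured genes of the mevalonate pathway and cholesterol synthesis 0 rose and 0 fell in limma, with a median of 0.16 and 0.41 with median scaling. HMGCS1, which encodes an early enzyme of the pathway, stood at 8.39, 8.65 and 8.80 in the combination arrays, against 8.14, 8.55 and 8.35 in the control arrays. These overlapped, and the change was 0.27 ± 0.33 (adjusted p = 0.809). INSIG1, a sensor gene of the sterol response, gave 0.14 ± 0.23 (adjusted p = 0.872). In sterol regulation and lipoprotein handling 2 of 16 rose and 1 fell (median 0.08). ABCA1, which exports cholesterol, stood at 7.93, 8.11 and 8.16 in the combination arrays, against 9.41, 9.31 and 9.31 in the control arrays, and fell by 1.28 ± 0.22. The lysosomal cholesterol transporter genes NPC2 and NPC1 rose by 0.86 ± 0.16 and 0.62 ± 0.12.

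Krüppel-like and immediate early genes had 6 of 30 higher and 0 lower (median 0.06). JUND, a member of the AP-1 factor, stood at 12.85, 12.95 and 12.90 in the combination arrays, against 11.31, 11.12 and 11.41 in the control arrays, and rose by 1.62 ± 0.13. KLF6 stood at 8.30, 8.52 and 8.62 in the combination arrays, against 6.64, 6.85 and 6.92 in the control arrays, and rose by 1.68 ± 0.42. The phosphatase gene DUSP5 rose by 1.41 ± 0.26.

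In lipid and sugar metabolism 3 of 18 fatty acid genes rose and 0 fell (median 0.18). G0S2, an inhibitor of the main triglyceride lipase, stood at 8.86, 8.51 and 8.52 in the combination arrays, against 6.42, 6.58 and 6.81 in the control arrays, and rose by 2.02 ± 0.45. The elongase gene ELOVL6 rose by 1.17 ± 0.15 and the desaturase gene FADS2 by 0.58 ± 0.15. In glucose metabolism 6 of 28 rose and 1 fell (median 0.06). With FBP1, the fructose transporter gene SLC2A5 stood at 11.50, 11.45 and 11.76 in the combination arrays, against 7.83, 8.15 and 8.09 in the control arrays, and rose by 3.55 ± 0.70. PGD, an enzyme of the pentose phosphate pathway that supplies NADPH, rose by 1.04 ± 0.24. The hexokinase genes moved in opposite directions. HK3, the isoform of myeloid cells, rose by 1.27 ± 0.15, and HK2 stood at 7.16, 7.25 and 7.22 in the combination arrays, against 7.99, 8.11 and 7.98 in the control arrays, and fell by 0.82 ± 0.17, a call lost with median scaling.

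Growth genes were lower to an extent that depended on the scaling. Of 28 measured genes of MYC and ribosome biogenesis 0 rose and 7 fell (median -0.35), against 1 higher and 0 lower with median scaling (median -0.12). MYC stood at 11.41, 11.78 and 11.35 in the combination arrays, against 12.24, 12.64 and 12.39 in the control arrays. It fell by 0.91 ± 0.18, with an adjusted p of 0.0988 with median scaling. NOLC1, a nucleolar chaperone gene, fell by 0.76 ± 0.18, RRP9, needed for ribosomal RNA processing, by 0.74 ± 0.15 and POLR1B, a subunit of RNA polymerase I, by 0.72 ± 0.13. Cell division genes passed at a share near or below the 6.02% of all genes. Of 30 DNA replication genes 1 rose, the thymidine kinase gene TK1 (0.78 ± 0.18), and 1 fell, the uracil glycosylase gene UNG (-0.79 ± 0.15), which is 6.67% of the list, with a median of -0.10 and 0.15 with median scaling. Of 28 mitosis genes 0 passed in limma with either scaling, and the median was 0.10, against 0.38 with median scaling. With median scaling and without the 2 doubted arrays 3 rose, and 1 fell with the authors' values.

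Cyclins and inhibitors of cyclin-dependent kinases had 5 of 23 higher and 1 lower (median 0.03). CDKN2D, the inhibitor p19 of the kinases that start the cycle, stood at 9.89, 9.89 and 10.00 in the combination arrays, against 7.98, 7.84 and 7.82 in the control arrays, and rose by 2.05 ± 0.21. CCND3 rose by 0.89 ± 0.16, and CDKN1A, the inhibitor p21, stood at 7.97, 7.84 and 8.38 in the combination arrays, against 7.33, 7.13 and 7.09 in the control arrays, and rose by 0.88 ± 0.21. CDK4, the kinase that CDKN2D binds, stood at 9.81, 10.06 and 10.27 in the combination arrays, against 10.46, 11.01 and 10.95 in the control arrays. It fell by 0.76 ± 0.21, a call lost with median scaling. Among apoptosis regulators 6 of 25 rose and 1 fell (median 0.24), and both sides of the pathway were among them. The survival gene BCL2A1 stood at 10.06, 10.02 and 10.05 in the combination arrays, against 7.23, 7.18 and 6.87 in the control arrays, and rose by 2.95 ± 0.53. The survival gene BCL2 stood at 7.76, 7.99 and 7.43 in the combination arrays, against 8.81, 9.18 and 8.94 in the control arrays, and fell by 1.25 ± 0.27, a call lost with median scaling. The death genes CASP9 (1.17 ± 0.20), BIK (1.09 ± 0.18) and BAK1 (0.96 ± 0.18) rose.

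Stress genes had 2 of 29 higher and 6 lower (median -0.14), against 3 higher and 0 lower with median scaling (median 0.06). HSPA5, the chaperone BiP of the endoplasmic reticulum, stood at 8.20, 8.30 and 8.54 in the combination arrays, against 9.02, 9.64 and 9.19 in the control arrays, and fell by 0.94 ± 0.17. XBP1, a transcription factor of the unfolded protein response, fell by 0.92 ± 0.23, the metallothionein gene MT1X by 0.87 ± 0.26 and HSP90B1 by 0.86 ± 0.17. All 4 calls were lost with median scaling. SQSTM1, the autophagy adaptor p62, rose by 1.15 ± 0.28 and DDIT4, an inhibitor of mTOR signalling, by 0.93 ± 0.20. In the lysosome list 6 of 25 rose and 0 fell (median 0.33), with the protease genes CTSD at 1.84 ± 0.31, CTSZ at 1.19 ± 0.22 and CTSL at 1.11 ± 0.19. In the list of migration, adhesion and cytoskeleton genes 11 of 34 rose and 0 fell (median 0.26). With CD52 these included ITGB7, the integrin beta chain of gut homing, at 2.82 ± 0.37, MYO1F, a myosin of neutrophils, at 1.96 ± 0.26, and the calcium-binding protein gene S100A6 at 1.61 ± 0.26.

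Other large falls came from genes in no list. CHST13, a chondroitin sulfotransferase, stood at 8.64, 8.78 and 8.86 in the combination arrays, against 10.97, 11.21 and 10.87 in the control arrays, and fell by 2.25 ± 0.34. CYTL1, a cytokine-like protein gene of immature blood cells, stood at 6.25, 6.61 and 6.65 in the combination arrays, against 8.71, 8.53 and 8.42 in the control arrays, and fell by 2.05 ± 0.38 to background. IGFBP4, a binding protein of insulin-like growth factors, fell by 1.77 ± 0.25, and INHBB, an activin subunit, by 1.58 ± 0.27. The amino acid transporter gene SLC7A5, which imports leucine, stood at 10.23, 10.03 and 9.83 in the combination arrays, against 11.67, 11.55 and 11.23 in the control arrays, and fell by 1.45 ± 0.27. KCNH2, a voltage-gated potassium channel gene, fell by 1.43 ± 0.16, the coactivator gene CITED1 by 1.5 ± 0.24, FAM43A by 1.58 ± 0.30 and BATF3, a transcription factor of dendritic cells, by 1.44 ± 0.29. RGS16, a brake on G-protein signalling, fell by 1.57 ± 0.36. Of the 15 largest falls 13 passed with median scaling too, and CST7 and RGS16 did not.

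Among markers of other cell types, the lymphoid list had 2 of 18 higher and 2 lower (median -0.01), which is 22.2% against 6.02% of all genes. CD79A, a B-cell receptor chain, stood at 8.98, 9.45 and 8.90 in the combination arrays, against 6.44, 6.93 and 6.83 in the control arrays. It rose by 2.38 ± 0.40, while a second CD79A probe, at 6.66 in control, gave 0.30 ± 0.16 and did not pass. CD79B, the partner of CD79A, fell by 0.57 ± 0.14 and the T-cell gene CD3D by 0.69 ± 0.12, both calls lost with median scaling. The B-cell marker MS4A1 was near background, with means of 6.43 in combination and 6.48 in control, and the whole lymphoid list summed to between 2806 and 3011 in the combination arrays, against 2686 to 2764 in the control arrays. The granule protein gene NKG7 rose by 0.93 ± 0.19. The erythroid and megakaryocyte list had 0 of 15 higher and 1 lower (6.67%). The epithelial and stromal list had 1 of 17 higher (KRT8, 0.62 ± 0.17) and 0 lower (5.88%). Both shares were near the 6.02% of all genes. The eosinophil, basophil and mast cell list had 0 of 10 called in limma. The part of such cells in the results was not tested.

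Single agents at 24 h place the combination's genes beside ATRA alone and atorvastatin alone. The comparisons share control or combination arrays, so the values are set side by side only. For the single agents the arrays of experiments 2 and 3 are given first and the 2 doubted arrays of experiment 1 apart, and an order of the groups holds for experiments 2 and 3 unless stated. NCF1 stood at 13.77, 13.52 and 13.87 with both agents, at 13.81 and 13.95 with ATRA, at 7.49 and 7.37 with atorvastatin and at 7.53, 7.41 and 7.70 in control. The doubted array labelled ATRA had 7.88 and the one labelled atorvastatin 13.66. Signals with both agents were therefore close to those of ATRA in those experiments and far from those of atorvastatin. KLF2 showed the reverse, at 8.48, 8.38 and 8.83 with both agents, 6.49 and 6.44 with ATRA, 8.88 and 9.11 with atorvastatin and 6.47, 6.35 and 6.19 in control, with 8.51 in the doubted array labelled ATRA and 6.49 in the one labelled atorvastatin. KLF6 had 8.30, 8.52 and 8.62 with both agents, 6.51 and 6.58 with ATRA, 8.92 and 8.59 with atorvastatin and 6.64, 6.85 and 6.92 in control, with 8.79 in the doubted array labelled ATRA and 6.24 in the one labelled atorvastatin. In ABCA1 the arrays with atorvastatin in experiments 2 and 3 were low, at 7.93, 8.11 and 8.16 with both agents, 9.03 and 8.94 with ATRA, 8.19 and 8.42 with atorvastatin and 9.41, 9.31 and 9.31 in control. There the doubted array labelled atorvastatin, at 9.21, was near control, and the one labelled ATRA was at 8.18.

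In other genes the signal with both agents lay above that of each agent. PLAU had 12.20, 12.22 and 12.36 with both agents, 11.38 and 11.38 with ATRA, 11.34 and 11.43 with atorvastatin and 10.12, 10.19 and 10.35 in control. The doubted arrays labelled ATRA and atorvastatin had 11.69 and 11.30. JUND had 12.85, 12.95 and 12.90 with both agents, 12.24 and 12.03 with ATRA, 12.22 and 12.43 with atorvastatin and 11.31, 11.12 and 11.41 in control, with 12.40 and 12.14 in the doubted arrays labelled ATRA and atorvastatin. In both genes every array of a single agent lay between both agents and control. ADGRE5 had 12.54, 12.46 and 12.40 with both agents, 11.14 and 10.98 with ATRA, 11.31 and 11.15 with atorvastatin and 10.97, 10.82 and 10.60 in control, so the single agents in experiments 2 and 3 lay closer to control. The doubted array labelled atorvastatin, at 11.09, did too, while the one labelled ATRA, at 11.64, lay midway. HMGCS1 differed again, at 8.39, 8.65 and 8.80 with both agents, 7.86 and 7.68 with ATRA, 9.33 and 9.49 with atorvastatin and 8.14, 8.55 and 8.35 in control. In experiments 2 and 3 the ATRA arrays were thus the lowest and the atorvastatin arrays the highest, while the doubted arrays gave the opposite order, at 9.39 for the one labelled ATRA and 7.43 for the one labelled atorvastatin. With all arrays the HMGCS1 change was -0.03 with ATRA and 0.41 with atorvastatin, and neither passed. Without the 2 doubted arrays both passed in limma, at -0.57 ± 0.15 with ATRA (adjusted p = 0.0229) and 1.07 ± 0.15 with atorvastatin (adjusted p = 7.95e-05). In that fit HMGCS1 with both agents was also higher than with ATRA, by 0.84 (adjusted p = 0.00546). Against atorvastatin it differed by -0.80 (adjusted p = 0.000554).

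**Figure D4:**
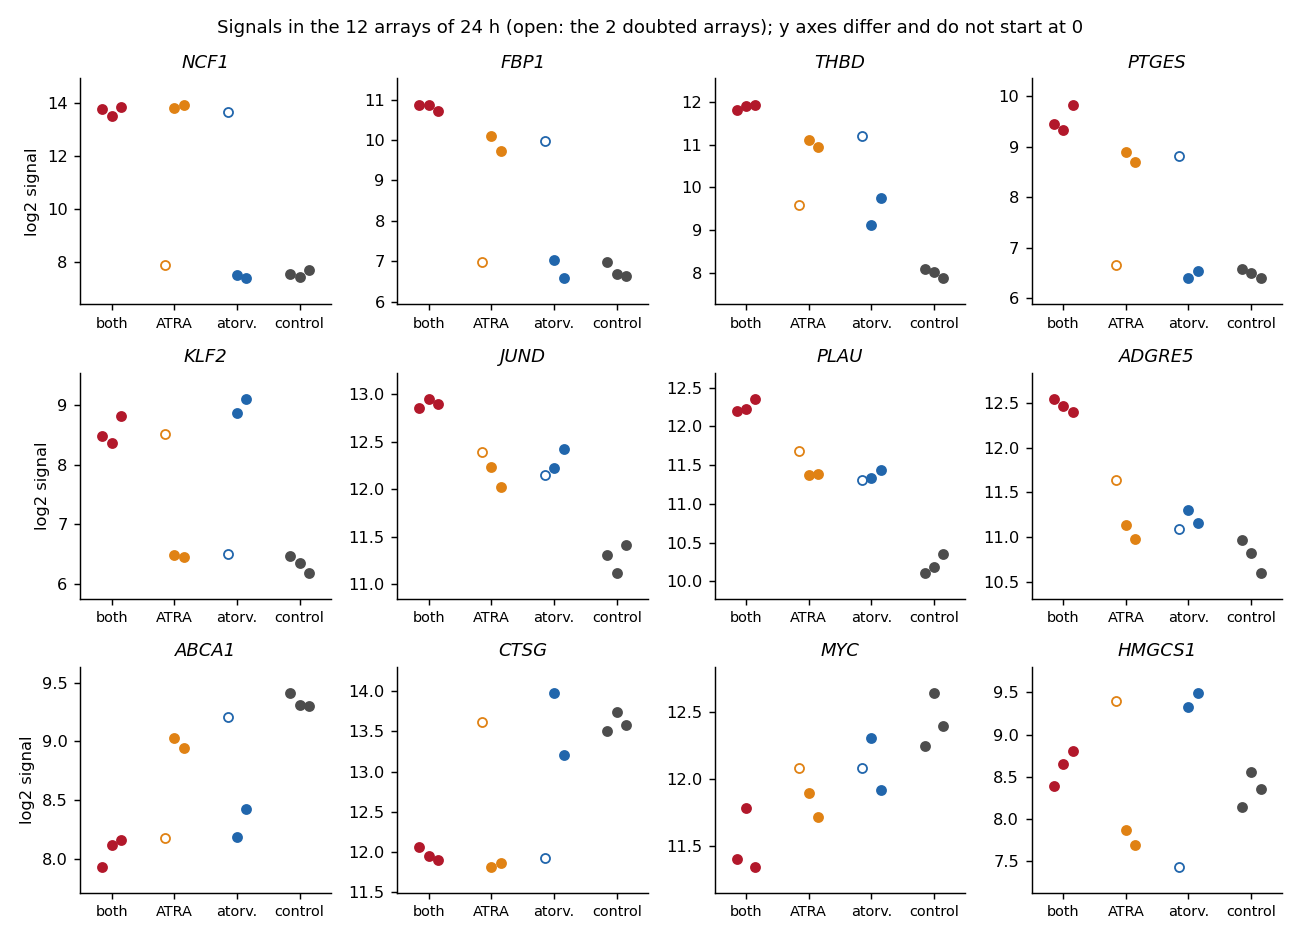
Log2 signal of 12 genes in the 12 arrays of 24 h, by group (both agents, ATRA, atorvastatin, control), 1 point per array, with the 2 doubted arrays of experiment 1 drawn open. Leaving aside the open points, NCF1 and CTSG with both agents sit beside ATRA, KLF2 and ABCA1 beside atorvastatin, and PLAU, JUND and ADGRE5 above both single agents.

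Counts in these tests depended on single arrays and on the scaling. Against control, ATRA alone changed 92 genes (0.601%), or 622 (4.06%) without the 2 doubted arrays, and atorvastatin alone 4 (0.0261%), or 50 (0.327%). The count for ATRA was 9 to 25 without each control array and 334 with median scaling (330 higher). It was 496 without experiment 1, which holds the 2 doubted arrays, 1 without experiment 2 and 3 without experiment 3. With all arrays 2 genes differed between both agents and ATRA (0.0131%), ADGRE5 at 1.21 ± 0.15 and PLAU at 0.78 ± 0.13, and 33 (0.216%) did without the 2 doubted arrays. Among those 33, KLF2 was higher with both agents than with ATRA by 2.10 ± 0.19 and KLF6 by 1.94 ± 0.16, and FBP1 by 0.90 ± 0.16, THBD by 0.87 ± 0.19 and ITGAM by 0.78 ± 0.17. With all arrays these 5 did not pass, with adjusted p between 0.107 for ITGAM and 0.908 for KLF6. Against atorvastatin 226 genes differed (1.48%) with all arrays and 856 (5.59%) without the 2 doubted arrays. The count against atorvastatin was 49 to 56 without each combination array and 987 with median scaling. It was 660 without experiment 1 and 1 without experiment 3. Without experiment 2 it was 0 in limma, with 1239 genes at an unadjusted p under 0.05. The interaction, which asks whether the change with both agents differs from the sum of the changes with each, gave 0 genes in limma with all arrays and 0 without the 2 doubted arrays, while 390 and 533 genes had an unadjusted p under 0.05. For ADGRE5 it was 0.83 with all arrays and 0.98 without the 2 doubted ones.

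The 24 h changes lie between a smaller set at 8 h and a larger one at 48 h, with each hour compared with its own control arrays. The counts were 199 genes at 8 h (1.3%), 922 at 24 h and 3118 at 48 h (20.4%). Without the 2 doubted arrays they were 405 (2.65%), 1159 and 3275 (21.4%). Of the 537 genes that rose at 24 h, 81 also rose at 8 h, which is 15.1% of them and 79.4% of the 8 h rises, and 464 also rose at 48 h, which is 86.4% of them and 31.4% of the 48 h rises. Of the 385 that fell, 62 also fell at 8 h (16.1% of them and 63.9% of the 8 h falls) and 333 at 48 h (86.5% of them and 20.3% of the 48 h falls). In all 132 genes changed in 1 direction at all 3 times, 113 changed at 24 h and at neither other time, and 2 had opposite directions at 24 and 48 h. Of the 15 largest rises at 24 h 6 had passed at 8 h, among them NCF1 at 4.80 ± 1.02, and all 15 passed at 48 h. Of the 15 largest falls 5 had passed at 8 h and all 15 passed at 48 h.

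Between 8 and 24 h the change of 1 gene differed by the test of the difference itself (0.00653%), that of ADGRE5, at 0.21 ± 0.15 after 8 h and 1.67 ± 0.15 after 24 h, a difference of 1.46 ± 0.21 (adjusted p = 0.00106). In that test 808 genes, ADGRE5 among them, had an unadjusted p under 0.05, and 105 passed without the 2 doubted arrays (0.686%), ALOX5AP, FGR and S100A8 among them. With median scaling the count was 0, without the arrays of experiment 2 it was 0 and without those of experiment 1 it was 44. Between 24 and 48 h the change of 241 genes differed (1.57%), 163 toward higher and 78 toward lower values, or 371 (2.42%) without the 2 doubted arrays. Of the 241 genes, 153 had not passed at 24 h. Without the arrays of experiment 2 the count was 41, without those of experiment 3 it was 117, and without those of experiment 1 it was 160.

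Among genes that had risen at 24 h, 57 rose further by 48 h and 3 turned back. S100A8 had changes of 0.21 ± 0.27, 2.09 ± 0.27 and 5.22 ± 0.27 at 8, 24 and 48 h, and G0S2 of 0.39 ± 0.45, 2.02 ± 0.45 and 5.81 ± 0.45. DDIT4 turned back, with changes of 1.10, 0.93 and -0.48 at 8, 24 and 48 h, as did MYBPH, a myosin-binding protein gene, with 1.37, 2.06 and 0.32. Among genes that had fallen at 24 h, 23 fell further and 5 turned back. CTSG had changes of -0.10, -1.63 and -4.45 at 8, 24 and 48 h and MYC of -1.07, -0.91 and -2.51, while HSPA5 went the other way with -0.57, -0.94 and 0.06. IL1B and EGR1, an immediate early transcription factor, had not passed at 24 h. IL1B had changes of 0.51, 0.21 and 4.64 at 8, 24 and 48 h, and EGR1 of -0.07, 0.01 and -1.75. FBP1 did not differ between 24 and 48 h by the test, with changes of 1.77, 4.06 and 3.87 at 8, 24 and 48 h and a difference of -0.19 ± 0.74 from 24 to 48 h.

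**Figure D5:**
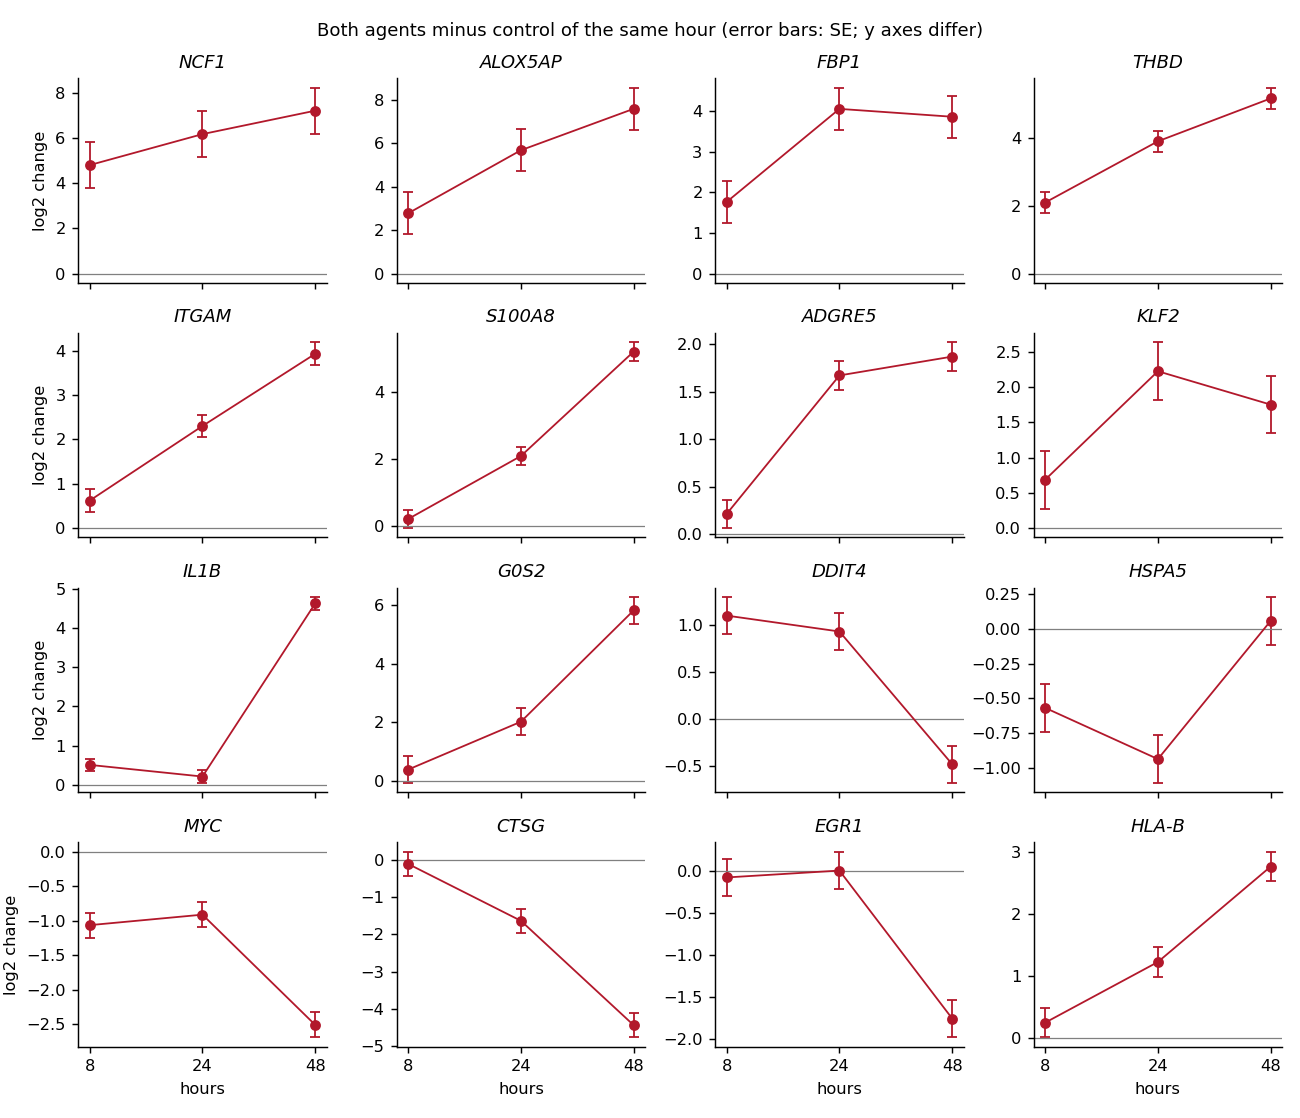
Change of 16 genes with both agents (combination minus control of the same hour, log2, ± SE, n = 3 arrays per group) at 8, 24 and 48 h. S100A8, G0S2 and HLA-B climb at 48 h, IL1B appears at 48 h, CTSG and MYC drop further, and DDIT4 and HSPA5 turn back toward or past 0.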

How the data were processed

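RNA of NB4 cells was read on 36 Sentrix Human-6 arrays in 12 groups of 3. The deposited file of each array holds linear intensity, which the authors averaged over beads in BeadStudio 1.3.1.5 without background correction, per the labels. The authors' deposited table of log2 values (column medians 6.68 to 6.69) served only as an alternative. In limma 3.58.1 under R 4.3.3 intensities were normexp corrected (offset 50), quantile normalized and set to log2. A probe was kept (41648 of 47293) if 3 or more arrays read it above the array's own median. A symbol is given for 18468 probes and missing for 28825. Each gene was read from its brightest probe. The dimmer probes of CASP9, CDKN2D, KCNH2, TAPBP, BCL2, CDKN1A, CTSL, UNG and CD79B did not pass in limma.

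A model of 12 group means (24 residual degrees of freedom) gave two-sided tests, adjusted by Benjamini-Hochberg and called at 0.05. Groups came from the sample titles, and 3 arrays per group limit the precision. Named genes were the 15 largest rises and falls with groups apart, up to 4 rises and 4 falls per list, the 5 largest per test between times, and set genes of retinoid, statin and granulocyte biology. Lists and members were chosen with earlier results of these data known. The 30 lists hold 720 genes, 654 measured, and 29 lists are described. Some planned items are not reported here. The method was tested on simulated data. Alternatives are given in the closing section.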

Additional observations from a re-analysis of the deposited data

Results flagged for a closer look

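The change with both agents against control differed between hours, by limma's test of the difference itself, in 24 of the genes named by rule, and 1 of these differences lies between 8 and 24 h. From 24 to 48 h the change moved upward by 4.43 in IL1B, 4.19 in LAMB3 (a laminin chain), 3.79 in G0S2, 3.17 in ISG20 (an interferon-induced exonuclease), 3.13 in S100A8, 2.26 in FCER1G, 2.05 in NKG7, 1.77 in TYROBP and 1.63 in ITGAM. It also moved upward by 1.54 in HLA-B, 1.5 in CDKN1A, 1.49 in HK3, 1.34 in CCRL2, 1.08 in TAP1 (a peptide transporter of antigen presentation), 1.02 in FCN1 and 1.00 in HSPA5. Downward moves were -2.82 in CTSG, -1.95 in CST7, -1.76 in EGR1, -1.73 in MYBPH, -1.60 in MYC, -1.41 in DDIT4 and -1.30 in MS4A3. ISG20 and IL1B had been near background in all 6 arrays at 24 h, ISG20 at 6.98, 6.83 and 6.65 in the combination arrays, against 6.50, 6.72 and 6.39 in the control arrays. LAMB3 stood at 7.65, 7.54 and 7.54 in the combination arrays at 24 h, against 6.79, 6.42 and 6.63 in the control arrays. From 8 to 24 h the change of ADGRE5 moved upward by 1.46.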

How the results depend on the processing

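The count of 922 genes ran from 898 to 1159 with median scaling, no background correction, all dim probes kept, the authors' log2 values, an interquartile range of at least 0.2, the mean over a gene's probes, a random block and without the 2 doubted arrays. It was 474 with only the arrays of 24 h, 1319 with only the 6 arrays compared, 607 to 686 without each array and 257 to 681 without each experiment. The experiment as a block gave 1144, and 1455 without the 2 doubted arrays, but the experiment numbers were not shown to pair the samples, since 1 of 3 same-number correlations was below 0. The count of 241 between 24 and 48 h was 157 with median scaling, 371 without the 2 doubted arrays, 328 with the block and 41 to 160 without each experiment. The count of 1 between 8 and 24 h was 0 with median scaling, 4 with the authors' values, 105 without the 2 doubted arrays, 6 with the block and 0 to 44 without each experiment. The interaction gave 0 genes in limma under each of 8 alternatives. No named gene that passed changed direction under these alternatives. Of 133 named genes 54 lost their call without experiment 2, 43 with only the arrays of 24 h, 37 without experiment 3 and 23 with median scaling, which gained 2, and 0 with the block. LAMB3 lost its call under 13 alternatives and GP1BB under 11. Genes near background in both groups have compressed changes.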

Other observations

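Probes with no gene symbol were left out of the comparison. Of 24421 such probes kept, 66 rose and 58 fell in the same limma test run over all 41648 kept probes, with the largest rise at 2.70 and the largest fall at -1.90. Among 17227 named probes in that test, 479 rose and 317 fell.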
